A study of Mus musculus with 4 samples.

Results

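The genes described here encode serine/threonine protein phosphatases and the subunits that direct them. They were chosen by symbol, as every row of the expression table that starts with Ppm1 or with Ppp and a digit between 1 and 6, with a mean of at least 50 counts over the 4 libraries. The rule found 64 members among 77 such rows, in a table of 14936 genes. The member just inside the minimum was Ppp1r3f, a glycogen-targeting subunit, with a mean of 63.8 counts, and the gene just outside it was Ppm1l, with 47.5 counts. The other 12 rows below the minimum were Ppm1e, Ppm1j, Ppm1n, Ppp1r14c, Ppp1r16b, Ppp1r1a, Ppp1r26, Ppp1r27, Ppp1r32, Ppp1r3c, Ppp1r42 and Ppp4r4.

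The RNA came from mouse primary macrophages grown out of bone marrow with M-CSF, the growth factor that drives macrophage differentiation. The 4 libraries came from 1 culture condition each: cells labelled KO, meaning deficient in the phosphatase gene Phlpp1, after 24 h and after 12 h with IL-4 at 20 ng/ml, and WT cells after the same times and dose. Every group therefore carried IL-4, and no untreated cells are among these groups. The labels give no allele, strain, age, sex or Cre driver, 1 of them spells the deficient genotype as Phkpp1, and whether the libraries stem from separate animals is not stated.

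Serine/threonine phosphatases remove phosphate that kinases add, and they fall into families with different designs. The PPP family holds a few catalytic subunits, those of PP1, PP2A, calcineurin, PP4, PP5 and PP6. Most of them, but not all, gain specificity from regulatory subunits that place them on a substrate, inhibit them or scaffold the holoenzyme. The PPM family, to which the Ppm1 genes and Phlpp1 belong, consists of metal-dependent enzymes that mostly act without such subunits. In macrophages, these enzymes are known for limiting kinase signalling after receptor activation, for the calcium-dependent activation of NFAT by calcineurin and for control of the actin and myosin cytoskeleton.

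Library totals lay between 36707999 and 41770309 counts, with 13682 to 13814 genes detected in each. CPM below means the count relative to the library total after TMM scaling. Phlpp1, the gene named in the labels, went against them: it reached 62.6 CPM at 24 h and 42.9 CPM at 12 h under the KO label, against 15.6 and 11.9 CPM in the WT libraries at 24 h and 12 h. Its log2 difference was 1.93 (SE 0.10), with an adjusted p of 3.28e-14 in edgeR's quasi-likelihood test. A count over the whole gene does not show whether an exon is missing. Because of this, every direction below is that of the libraries labelled KO relative to those labelled WT, and not of a loss of Phlpp1. Its paralog Phlpp2 had 10.5 and 11.0 CPM in the libraries labelled KO at 24 h and 12 h, against 11.4 and 9.74 CPM in the WT libraries at those times (log2 0.03).

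Of 15 macrophage markers, 14 passed the filter of 1 CPM in 2 libraries, and Cd163 did not. Csf1r, the M-CSF receptor, gave 1926 CPM at 24 h and 2005 CPM at 12 h under the KO label, against 2182 and 2085 CPM under the WT label. For comparison with the marker lists, edgeR's test called 4.18% of all genes tested higher and 5.34% lower under the KO label. Of 14 tested macrophage markers, 9 were lower in the libraries labelled KO and 0 were higher, with a summed level of 19979 and 20884 CPM at 24 h and 12 h, against 24683 and 25647 CPM in WT. Lyz2 alone gave 10517 and 11009 CPM of these sums under the KO label, against 13265 and 14478 CPM in WT. Of 13 tested stromal markers, 11 were higher and 0 were lower, with sums of 337 and 302 CPM in the libraries labelled KO, against 206 and 185 CPM in WT. Of 13 tested neutrophil markers, 7 were lower and 0 were higher, with sums of 912 and 1042 CPM against 1202 and 1304 CPM in WT. Of 25 cell cycle genes, 5 were higher and 0 were lower, with sums of 751 and 757 CPM against 640 and 680 CPM in WT. Mcm6 alone gave 64.7 and 66.0 CPM of these sums, against 21.6 and 22.5 CPM in WT. Of the other lists, 3 of 8 osteoclast markers and 1 of 2 dendritic cell markers were higher, while 3 of 4 erythroid and megakaryocyte markers, 2 of 5 mast cell, basophil and eosinophil markers and 1 of 2 lymphocyte markers were lower. No marker in the table was at 0 in every library, and 8 of 11 lymphocyte markers were under 1 CPM.

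The transcripts of the phosphatase genes were abundant relative to the rest of the table. Levels of different genes are compared on the deposited FPKM scale, which divides by gene length. The median member had a mean of 11.3 FPKM over the 4 libraries, against 3.58 FPKM for the median gene of the table, and 53 of the 64 members lay above that table median. The count minimum in the rule removed low genes from the members, so their place above the table median is a description. Only 3 members reached 100 FPKM: Ppp1ca, a catalytic subunit of PP1, at 265 FPKM, Ppp2r1a, the alpha scaffold of PP2A, at 135 FPKM, and Ppp2ca, the alpha catalytic subunit of PP2A, at 127 FPKM. Another 32 members lay between 10 and 100 FPKM, 24 between 1 and 10 FPKM and 5 below 1 FPKM. The next in order were Ppp1r9b (spinophilin or neurabin-2, an actin-binding PP1 scaffold) at 86.9 FPKM, Ppp4c (the PP4 catalytic subunit) at 74.6 FPKM and Ppp1cc (the gamma catalytic subunit of PP1) at 70.9 FPKM. They were followed by Ppp3r1, the calcium-binding subunit of calcineurin, at 61.1 FPKM, Ppp1r18, the actin-associated PP1 subunit phostensin, at 52.9 FPKM, Ppp1r14b, a PP1 inhibitor, at 50.8 FPKM, and Ppm1g, a nuclear PPM phosphatase, at 44.3 FPKM.

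**Figure D1:**
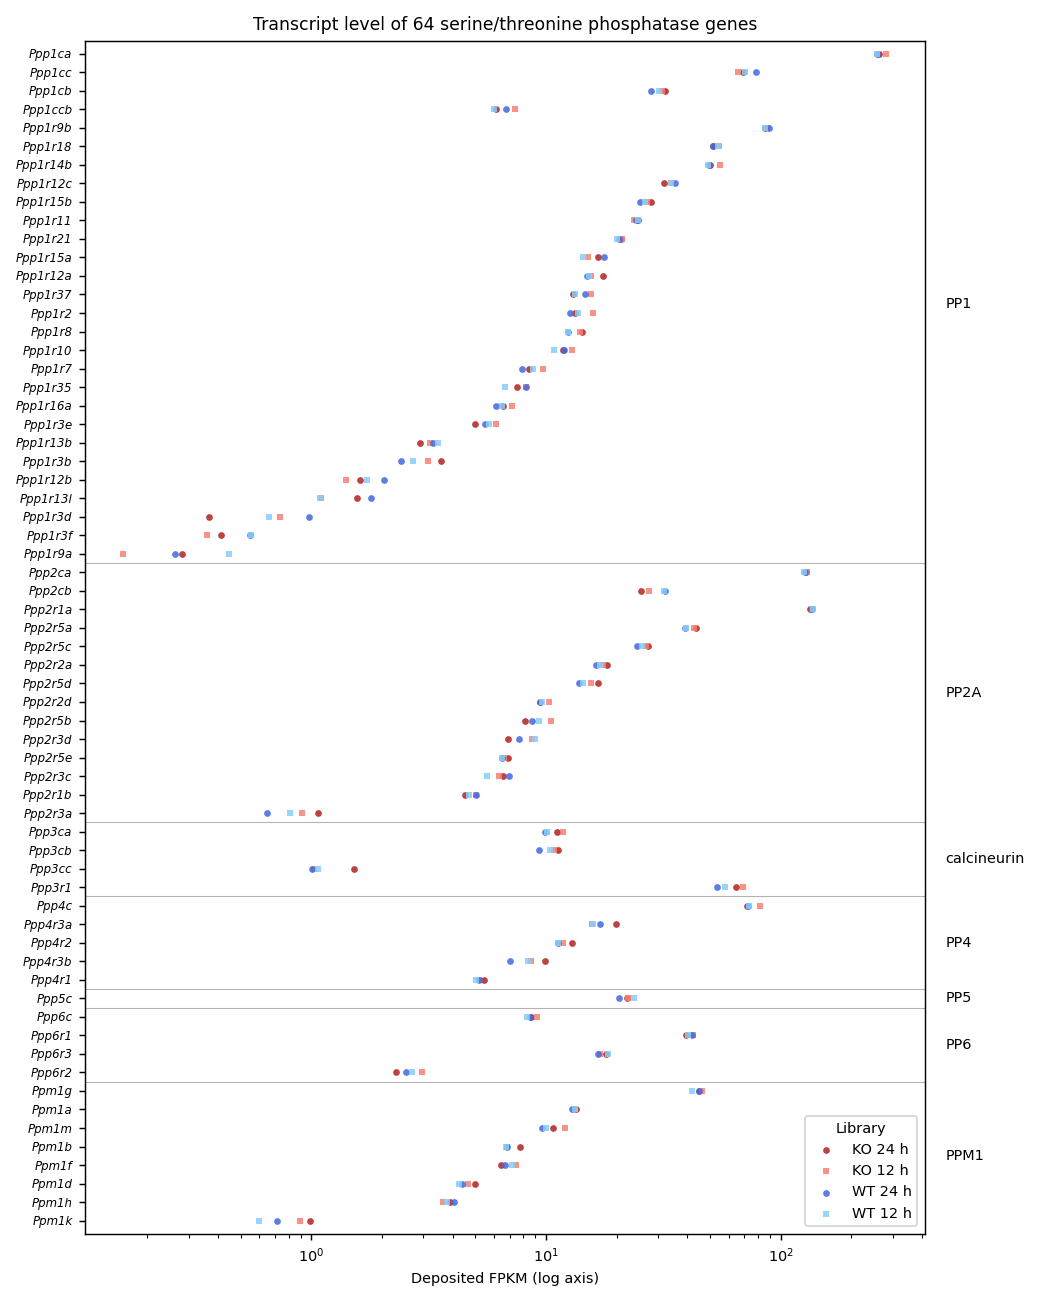
Deposited FPKM of the members by class, on a log axis, with 1 row per gene and 1 point per library. Ppp1ca, Ppp2r1a and Ppp2ca average above 100 FPKM, and 5 members average below 1 FPKM.

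Summed by class, regulatory transcripts of PP1 came to a mean of 419.9 FPKM over 24 members, against 366 FPKM for its catalytic members Ppp1ca, Ppp1cb and Ppp1cc. For PP2A, the sum was 156.5 FPKM for the catalytic members, 140.1 FPKM for the scaffolds, 98.1 FPKM for the B56 subunits, 26.9 FPKM for the B55 subunits and 15.3 FPKM for the PR72 group. In calcineurin the regulatory Ppp3r1 stood at 61.1 FPKM and the 3 catalytic genes together at 22.3 FPKM. Catalytic Ppp6c, at 8.64 FPKM, was likewise below its regulatory subunits, at 61.2 FPKM in sum, while catalytic Ppp4c, at 74.6 FPKM, was above its regulatory subunits, at 42.6 FPKM in sum.

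These levels depend on the gene lengths behind the deposited FPKM. The length that the deposited count and FPKM of a gene imply lay within 1.5-fold of the gene's summed exons in GENCODE M21 for 41 of the 64 members and for 9409 of 14492 matched genes in the table. For Ppm1h, the implied length was 36.3 kb, against 10.2 kb of annotated exon and a longest transcript of 6.37 kb. For Ppp4r1, it was 21.5 kb, against 5.45 kb of exon. The FPKM values of these genes, 3.84 and 5.21, are therefore low relative to their 129 to 151 CPM and 109 to 116 CPM. For Ppp6c the implied length was 7.27 kb against 4.44 kb of exon, and for Ppp2ca it was 1.93 kb against 7.49 kb. For Ppp4c it was 1.55 kb against 4.28 kb. For Ppp2cb it was 2.04 kb against 1.47 kb, the other way from Ppp2ca. The place of Ppp4c above the sum of its regulatory subunits therefore depends on the lengths used. So do the places of Ppp2ca above 100 FPKM and, by FPKM, above Ppp2cb. The place of the PP2A catalytic sum above the scaffold sum depends on them too. Comparisons of 1 gene between libraries do not depend on the length. All 64 members have a GENCODE position, on 18 chromosomes, and 12 of them share more than 5% of their 50-base stretches with another annotated gene on the same strand and 9 with an antisense one.

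Between the genotypes, most phosphatase transcripts were close to flat, and 2 of the 64 members were called. The fitted log2 differences of the members ran from -0.75 to 0.47, and a member without a call can still differ. Across all 10993 genes tested, edgeR's test called 9.52% for genotype at an adjusted p under 0.05, with 4.18% higher under the KO label and 5.34% lower. Among the members, 0 were called higher and 2 were called lower: Ppp2cb, the beta catalytic subunit of PP2A, and Ppp1r12b, a myosin-targeting subunit of PP1. DESeq2 called 0 members. At an unadjusted p under 0.05 the members numbered 9, against 20.8% of all genes tested. The median log2 difference of the members was 0.01, against -0.00 for all genes tested, with 32 members above 0 and 32 below it. Their median absolute log2 difference was 0.07, against 0.12 for all genes tested. The genes tested were not held to the count minimum of the members. This comparison of sizes, and those of time differences and SD below, are therefore descriptions. With 1 library per genotype and time, the fit left each gene 1 residual degree of freedom. These p-values therefore rest mostly on variance that edgeR shares across all genes tested. They reflect no more than the spread among these libraries, which could be technical. For some genes below, both libraries of 1 genotype are said to lie above or below both of the other. The share of all genes tested for which this holds is not given here, so it is a description. In bulk RNA, fewer cells of a type and less RNA per cell cannot be told apart, and the part of the marker differences above in any member's difference was not tested.

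**Figure D2:**
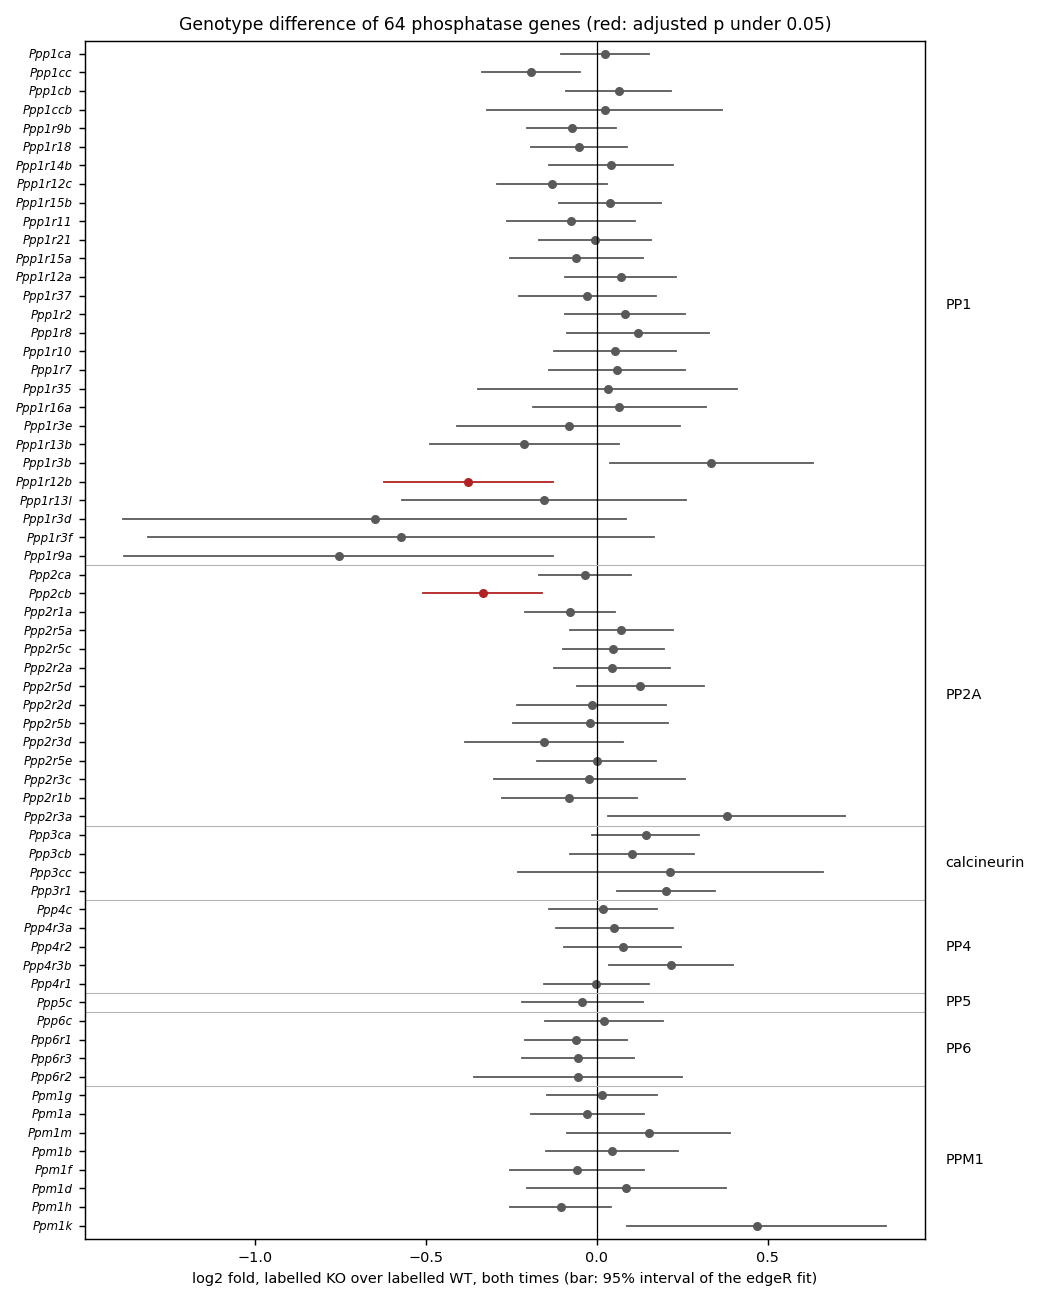
Fitted log2 difference of the libraries labelled KO over WT for each member, by class, with bars for the 95% interval of the edgeR fit and called members in red. Ppp2cb (-0.33) and Ppp1r12b (-0.38) are the called members, and most of the others lie close to 0.

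The catalytic subunit of PP2A is encoded by a pair of genes, Ppp2ca and Ppp2cb, whose proteins are nearly identical. Ppp2cb had 1897 and 2220 counts in the libraries labelled KO at 24 h and 12 h, against 2421 and 2708 counts in the WT libraries. On the CPM scale this was 50.9 and 54.4 in the libraries labelled KO, against 67.0 and 65.6 in WT. Both libraries labelled KO were below both WT libraries, and the libraries of 1 genotype differed by less than the genotypes did. Ppp2cb fell in the libraries labelled KO, to 0.794 of the WT level (95% interval 0.704 to 0.895, log2 -0.33, SE 0.08, adjusted p = 0.00850 in edgeR's test). At single times the ratio was 0.760 at 24 h (95% counting interval 0.715 to 0.807) and 0.828 at 12 h (0.783 to 0.877), and such intervals cover counting error only. The call was lost with DESeq2 (adjusted p = 0.0876), with plain library totals (0.0583) and with time left out of the model (0.0859). With 1 library and the time term left out, the log2 difference of Ppp2cb lay between -0.38 and -0.29. Such a fit has 1 library in an arm, whose spread is assumed to be that of the other genotype. There, the adjusted p in edgeR's test was 0.114 when the 24 h library labelled KO was dropped and 0.0306 when its 12 h counterpart was. It was 0.408 when the 24 h WT library was dropped and 0.307 when the 12 h WT library was. Ppp2cb lies on chromosome 8 (33599625 to 33619441, plus strand, GRCm38), and it shared 0% of its 50-base transcript stretches with another annotated gene.

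Ppp2ca, the gene of the pair with more counts, had 243 and 243 CPM in the libraries labelled KO at 24 h and 12 h, against 252 and 245 CPM in the WT libraries. Its ratio of 0.977 had a 95% interval of 0.890 to 1.07 (adjusted p = 0.851 in edgeR's test), so the largest decrease within the interval is smaller than the fitted decrease of Ppp2cb. The difference between the changes of the 2 paralogs was not tested. Antisense genes overlap 40.9% of the annotated Ppp2ca sequence, and since the sources used here do not say whether counting used strand, reads from them could be included. As a share of the FPKM of the pair, Ppp2cb held 16.6% and 17.5% in the libraries labelled KO at 24 h and 12 h, against 20.1% and 20.3% in WT. The size of these shares depends on the gene lengths behind the FPKM.

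The other PP2A subunits gave no calls. The scaffold Ppp2r1a, on which the catalytic and B subunits assemble, had 295 and 300 CPM in the libraries labelled KO, against 315 and 312 CPM in WT (log2 -0.08, adjusted p = 0.558 in edgeR's test). Its paralog Ppp2r1b had the same log2 difference of -0.08. The B55 subunits, which direct PP2A to substrates of mitotic exit among others, had log2 differences of 0.05 (Ppp2r2a) and -0.01 (Ppp2r2d). The 5 B56 subunits, which recognise short motifs in their substrates, lay between -0.02 for Ppp2r5b and 0.13 for Ppp2r5d, with Ppp2r5a, the most abundant, at 0.07. Ppp2r3a, of the calcium-binding PR72 group, had 11.9 and 10.1 CPM in the libraries labelled KO, against 7.58 and 9.33 CPM in WT (log2 0.38, SE 0.17, adjusted p = 0.191). Its libraries labelled KO were both above both WT libraries, by 1.57-fold at 24 h and by 1.09-fold at 12 h. The other PR72 members, Ppp2r3c and Ppp2r3d, had log2 differences of -0.02 and -0.15.

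**Figure D3:**
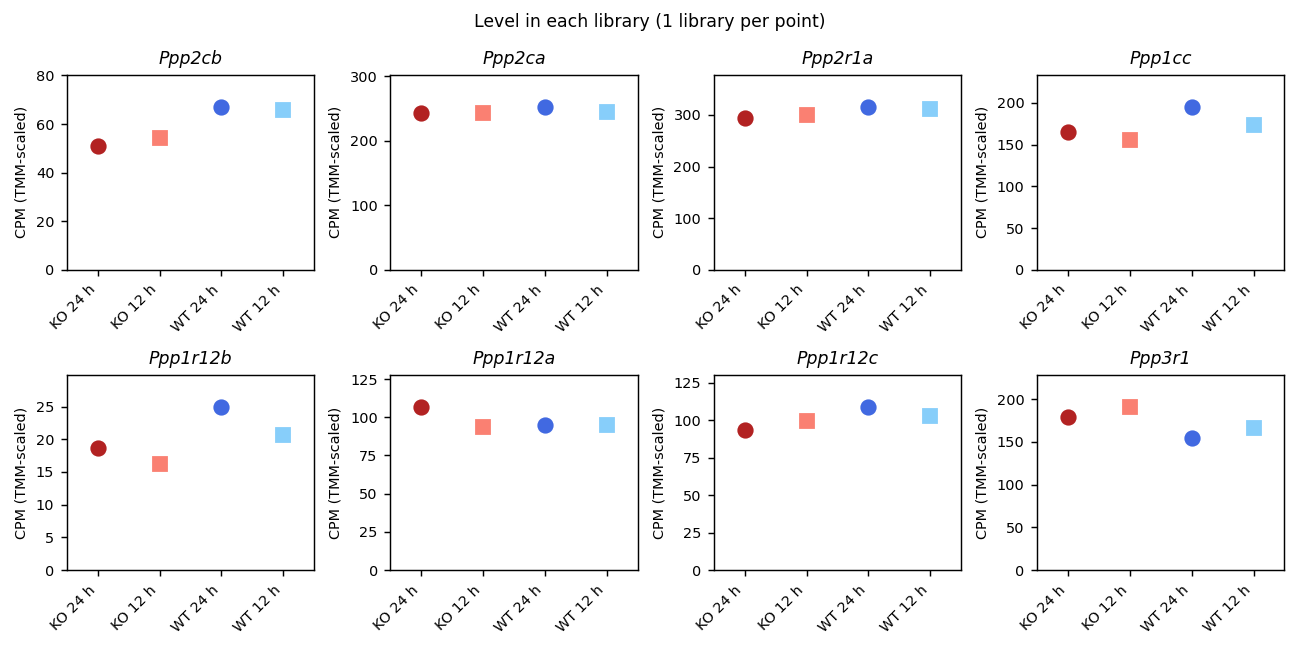
TMM-scaled CPM of selected members in each library, 1 point per library, the libraries labelled KO left of the WT libraries. Ppp2cb and Ppp1r12b are lower in both libraries labelled KO than in both WT libraries, while Ppp2ca lies between 243 and 252 CPM in all 4.

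For PP1, the catalytic genes had no call. Ppp1ca had 352 and 375 CPM in the libraries labelled KO, against 360 and 355 CPM in WT (log2 0.02, SE 0.06). Ppp1cb, the catalytic subunit that pairs with the myosin-targeting subunits, had 131 and 127 CPM against 119 and 127 CPM in WT (log2 0.06). Ppp1cc had 166 and 156 CPM in the libraries labelled KO, against 195 and 173 CPM in WT (log2 -0.19, SE 0.07, adjusted p = 0.0847 in edgeR's test). Both libraries labelled KO were below both WT libraries for Ppp1cc. Of its 50-base stretches, 38.9% are also in Ppp1ccb, an expressed processed pseudogene on chromosome 7, and reads could be split between these genes. Ppp1ccb itself had 8.90 and 10.6 CPM in the libraries labelled KO, against 10.2 and 8.92 CPM in WT.

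Ppp1r12b belongs to the myosin-targeting subunits, which bring Ppp1cb to the myosin light chain and so oppose contraction. It had 697 and 664 counts in the libraries labelled KO at 24 h and 12 h, against 899 and 849 counts in WT. On the CPM scale this was 18.7 and 16.3 in the libraries labelled KO, against 24.9 and 20.6 in WT, with no overlap. It fell in the libraries labelled KO to 0.771 of the WT level (95% interval 0.649 to 0.915, log2 -0.38, SE 0.12, adjusted p = 0.0460 in edgeR's test). The single ratios were 0.752 at 24 h (counting interval 0.680 to 0.831) and 0.790 at 12 h (0.713 to 0.876). This call lay close to the threshold: it was lost with DESeq2 (adjusted p = 0.347), with plain library totals (0.120), with time left out (0.233) and whenever 1 library was left out (0.0851 to 0.881, with log2 differences of -0.51 to -0.24). Acta2 and Tagln, smooth muscle genes on the stromal list, moved the other way, with log2 differences of 0.55 and 0.54 (adjusted p = 0.0160 and 0.0486 in edgeR's test), and their part in the result was not tested. Ppp1r12b lies on chromosome 1 (134754658 to 134955942, minus strand, GRCm38), 28.6 Mb from Phlpp1. Of the other members within 30 Mb of Phlpp1, Ppp1r7 had a log2 difference of 0.06 and Ppp1r15b one of 0.04.

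Its paralogs did not share the call. Ppp1r12a, the main myosin phosphatase targeting subunit, had 106 and 93.4 CPM in the libraries labelled KO, against 94.6 and 95.3 CPM in WT (log2 0.07). Ppp1r12c had 93.7 and 99.3 CPM in the libraries labelled KO, against 109 and 103 CPM in WT (log2 -0.13, adjusted p = 0.374 in edgeR's test). Ppp1r16a, a related membrane-associated subunit, had a log2 difference of 0.07. By FPKM, Ppp1r12c led the group at 33.9, ahead of Ppp1r12a at 15.8, Ppp1r16a at 6.58 and Ppp1r12b at 1.70.

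The promoters of the called Ppp1r12b and of its uncalled paralogs are shown to let their sequence be compared, with that of Ppp2ca, the uncalled paralog of Ppp2cb. Each runs 250 bases before to 50 bases after the start listed farthest upstream in RefSeq, on GRCm38.p6 and on the strand of the gene: chr1:134955891-134956190 (minus) for Ppp1r12b, chr10:108161848-108162147 (plus) for Ppp1r12a, chr7:4501631-4501930 (minus) for Ppp1r12c and chr11:52098574-52098873 (plus) for Ppp2ca. Ppp1r12b has another listed start downstream of this one. Capitals mark matches, on either strand, to any of 9 motifs: the CCAAT box CCAAT, the GC box GGGCGG, the cAMP response element TGACGTCA, the E-box CACGTG, the STAT6-type palindrome (TTC and GAA with 4 bases between them), the FoxO-type GTAAACA, the TATA box TATAAA, the ETS-type CCGGAAG and the NRF1-type GCGCATGC. Matches that overlap run together.
Ppp1r12b: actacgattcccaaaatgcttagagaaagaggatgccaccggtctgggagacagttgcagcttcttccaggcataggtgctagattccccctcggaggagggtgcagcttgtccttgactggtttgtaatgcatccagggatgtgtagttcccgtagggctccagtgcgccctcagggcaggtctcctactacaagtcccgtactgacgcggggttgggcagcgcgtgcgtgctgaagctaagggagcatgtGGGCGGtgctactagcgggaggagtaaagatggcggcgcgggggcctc
Ppp1r12a: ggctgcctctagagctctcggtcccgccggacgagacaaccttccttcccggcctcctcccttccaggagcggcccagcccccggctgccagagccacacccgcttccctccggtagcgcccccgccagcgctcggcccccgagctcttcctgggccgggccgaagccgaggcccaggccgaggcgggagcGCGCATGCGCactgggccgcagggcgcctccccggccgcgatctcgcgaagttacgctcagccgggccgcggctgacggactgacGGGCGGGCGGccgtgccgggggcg
Ppp1r12c: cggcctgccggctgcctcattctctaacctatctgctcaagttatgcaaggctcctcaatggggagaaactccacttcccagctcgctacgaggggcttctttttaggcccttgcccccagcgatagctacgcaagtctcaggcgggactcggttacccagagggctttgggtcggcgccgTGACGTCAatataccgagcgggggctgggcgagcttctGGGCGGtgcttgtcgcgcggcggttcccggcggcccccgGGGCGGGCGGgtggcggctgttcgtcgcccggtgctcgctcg
Ppp2ca: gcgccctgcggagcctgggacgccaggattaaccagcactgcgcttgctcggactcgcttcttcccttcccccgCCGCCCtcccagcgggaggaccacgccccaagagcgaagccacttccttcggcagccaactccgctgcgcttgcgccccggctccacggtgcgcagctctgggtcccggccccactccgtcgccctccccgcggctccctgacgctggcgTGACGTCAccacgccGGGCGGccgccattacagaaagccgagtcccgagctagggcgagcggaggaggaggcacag

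The Ppp1r12b window held 1 GC box and no other of these motifs. The Ppp1r12a window held 2 overlapping GC boxes and an NRF1-type match found on both strands. The Ppp1r12c window held 3 GC boxes and 1 cAMP response element, and that of Ppp2ca held 2 GC boxes and 1 cAMP response element. The CG dinucleotides numbered 16 in Ppp1r12b, 40 in Ppp1r12a, 31 in Ppp1r12c and 34 in Ppp2ca. A match is a description of the letters and not of binding.

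Over the 53 members with a listed start, the median promoter window held 24 CG dinucleotides, with a range of 5 to 47, against a median of 19 for 11789 matched genes of the table and 7 for all 27025 genes listed. A GC box was in 77.4% of the member windows, against 60.8% of the table's genes and 35.9% of all genes. A cAMP response element was in 11.3% (6 members: Ppp1r12c, Ppp1r15a, Ppp2r2d, Ppp2ca, Ppm1d and Ppm1a), against 3.00% and 1.85%. None of these 6 was called for genotype or time, against 9.52% and 2.08% of all genes tested. Of all 64 members, 2 were called for genotype and 0 for time. A CCAAT box was in 32.1% of member windows, against 38.8% and 38.0%, an E-box in 1.89%, against 9.70% and 7.24%, and an ETS-type match in 9.43%, against 16.6% and 9.14%. A STAT6-type palindrome was in 7.55% of member windows, against 5.55% and 7%, a TATA box in 11.3%, against 7.93% and 14.2%, and an NRF1-type match in 3.77%, against 4.92% and 2.80%. A FoxO-type match was in 0 member windows, against 2.50% and 3.52%. The genes of the table and all genes listed were not held to the count minimum of the members. These promoter comparisons are therefore descriptions, and not traits shown to belong to phosphatase genes.

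The remaining PP1 regulators gave no calls for genotype. The glycogen-targeting subunits place PP1 on glycogen and its enzymes, and 4 of them were members. Ppp1r3b, the subunit best known from liver, had 16.1 and 14.1 CPM in the libraries labelled KO, against 11.3 and 12.6 CPM in WT (log2 0.34, SE 0.14, adjusted p = 0.168 in edgeR's test). Ppp1r3d had 44 and 95 counts in the libraries labelled KO, against 118 and 90 counts in WT (log2 -0.65, SE 0.36, adjusted p = 0.320). Its lowest library was the one labelled KO at 24 h. Ppp1r3f and Ppp1r3e had log2 differences of -0.57 and -0.08, with adjusted p of 0.403 and 0.853 in edgeR's test.

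Among the actin-linked PP1 scaffolds, Ppp1r9b had 364 and 370 CPM in the libraries labelled KO, against 398 and 374 CPM in WT (log2 -0.07), and Ppp1r18 had a log2 difference of -0.05. Ppp1r9a, the low paralog of Ppp1r9b, had 124 and 76 counts in the libraries labelled KO, against 118 and 224 counts in WT. Its log2 difference of -0.75 (SE 0.31, adjusted p = 0.136 in edgeR's test) combines a ratio of 1.02 at 24 h and one of 0.343 at 12 h. The inhibitors Ppp1r14b, Ppp1r11 and Ppp1r2 had log2 differences of 0.04, -0.07 and 0.08. The eIF2alpha-directed subunits, which restart translation after stress, had -0.06 for the stress-inducible Ppp1r15a and 0.04 for the constitutive Ppp1r15b. The nuclear and core subunits Ppp1r7, Ppp1r8 and Ppp1r10 had 0.06, 0.12 and 0.05. The ASPP proteins, which also bind p53, had -0.21 for Ppp1r13b and -0.15 for Ppp1r13l. The remaining interactors Ppp1r21, Ppp1r35 and Ppp1r37 had -0.00, 0.03 and -0.03.

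The fitted differences of the 4 calcineurin genes were all above 0, and none passed the test. Ppp3r1 had 179 and 190 CPM in the libraries labelled KO at 24 h and 12 h, against 155 and 166 CPM in WT (log2 0.20, SE 0.07, adjusted p = 0.0646 in edgeR's test). Both libraries labelled KO were above both WT libraries, with a ratio of 1.15 at each time. With plain library totals in place of TMM, its log2 difference was 0.26 and it passed (adjusted p = 0.0302), and 13.0% of its 50-base stretches are also in Wdr92. Ppp3ca, the main catalytic gene here by count, had 109 and 114 CPM in the libraries labelled KO, against 101 and 101 CPM in WT (log2 0.14, adjusted p = 0.295 in edgeR's test). Ppp3cb had 52.5 and 50.4 CPM against 45.5 and 50.3 CPM in WT (log2 0.10), and Ppp3cc had 7.05 and 4.73 CPM against 4.87 and 5.09 CPM in WT (log2 0.22, SE 0.22).

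Calcineurin's partners were read from a list of 16 genes, of which 12 were tested. Of these, 1 was higher and 2 were lower, against 4.18% and 5.34% of all genes tested, with a median log2 difference of -0.03 against -0.00 for all genes tested. Calm2, 1 of the 3 calmodulin genes and so an activator of calcineurin, rose in the libraries labelled KO, with 536 and 644 CPM at 24 h and 12 h, against 439 and 516 CPM in WT (log2 0.30, SE 0.06, adjusted p = 0.000744 in edgeR's test). It was also lower at 24 h than at 12 h in both genotypes (log2 -0.25, adjusted p = 0.0185 in edgeR's test). Rcan1, an inhibitor of calcineurin whose transcription NFAT can induce, fell in the libraries labelled KO, with 30.7 and 29.1 CPM, against 44.2 and 34.3 CPM in WT (log2 -0.38, adjusted p = 0.0111). Nfatc2, a transcription factor that calcineurin dephosphorylates, fell to 27.3 and 30.6 CPM, against 37.9 and 39.6 CPM in WT (log2 -0.42, adjusted p = 0.00367). For each of these genes, named because they were called, the libraries of the genotypes did not overlap, which is a description. Their calls were not checked with DESeq2 or other scalings.

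PP4, PP5 and PP6 are PP2A-like or related enzymes with roles in DNA repair, chaperone complexes and mitosis. None of their 10 genes passed the test. Ppp4c had 109 and 124 CPM in the libraries labelled KO, against 115 and 115 CPM in WT (log2 0.02). Ppp4r3b, a substrate-recruiting PP4 subunit, had 99.1 and 85.8 CPM in the libraries labelled KO, against 73.1 and 85.8 CPM in WT (log2 0.22, SE 0.09, adjusted p = 0.141 in edgeR's test). Its ratio was 1.35 at 24 h, while the 12 h values were equal to 3 digits, and the difference between the times was not tested. Its paralog Ppp4r3a had a log2 difference of 0.05, and Ppp4r1 and Ppp4r2 had -0.00 and 0.08. Ppp5c had 54.7 and 54.8 CPM in the libraries labelled KO, against 52.9 and 59.9 CPM in WT (log2 -0.04). Ppp6c had 61.5 and 65.1 CPM against 63.6 and 60.9 CPM in WT (log2 0.02), and Ppp6r1, Ppp6r2 and Ppp6r3 had log2 differences of -0.06, -0.05 and -0.05.

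The 8 Ppm1 members are enzymes of the same family as Phlpp1, and none passed the test. Ppm1k, a mitochondrial phosphatase that activates branched-chain ketoacid dehydrogenase, had 8.69 and 7.84 CPM in the libraries labelled KO at 24 h and 12 h, against 6.58 and 5.40 CPM in WT. Both libraries labelled KO were above both WT libraries (log2 0.47, SE 0.19, adjusted p = 0.125 in edgeR's test). Ppm1a, which acts on stress kinases and Smad proteins, had the lowest SD of log2 CPM of all members, with 77.0 and 75.7 CPM in the libraries labelled KO, against 77.5 and 78.1 CPM in WT. Ppm1h had 140 and 129 CPM in the libraries labelled KO, against 151 and 138 CPM in WT (log2 -0.10), and Ppm1m had a log2 difference of 0.15. The log2 differences of Ppm1b, Ppm1d, Ppm1f and Ppm1g were 0.04, 0.09, -0.06 and 0.02.

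Between 24 h and 12 h of IL-4, 0 members were called, against 2.08% of all genes tested (0.955% higher and 1.13% lower at 24 h). DESeq2 also called 0 members. At an unadjusted p under 0.05 the members numbered 4, against 12.2% of all genes tested: Ppp1r13l, Ppp4r3a, Ppp1r15a and Ppp2r3d. The median log2 difference was -0.00 for the members and for all genes tested, and the median absolute difference was 0.05 for the members against 0.10 for all genes tested. Ppp1r13l, an inhibitory ASPP protein, had the largest fitted difference of the members, with 6.52 and 7.86 CPM at 24 h in the libraries labelled KO and WT, against 4.55 and 4.65 CPM at 12 h (log2 0.64, SE 0.20, adjusted p = 0.117 in edgeR's test). Ppp4r3a had 90.2 and 80.2 CPM at 24 h in KO and WT, against 70.4 and 73.6 CPM at 12 h (log2 0.24, SE 0.08, adjusted p = 0.170). Ppp1r15a had a time difference of 0.23 and Ppp2r3d one of -0.27 on the log2 scale.

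Single ratios of 2 libraries have no replicate check, and a rule of size was used in place of a test: a ratio of at least 1.5 after adding 1 CPM to each value. At 24 h, 1 member was past it upward and 1 downward in KO over WT, against 3.43% and 2.43% of all genes measured (5.87% in either direction), namely Ppp2r3a (1.57-fold) and Ppp1r3d (0.362-fold). These folds, and those that follow, are given without the added CPM. At 12 h, 0 members were past it upward and 1 was past it downward, Ppp1r9a, at 0.343-fold, against 2.83% and 2.42% of all genes (5.25% in either direction). Between 24 h and 12 h in the libraries labelled KO, Ppp1r9a was past it upward (1.79-fold) and Ppp1r3d downward (0.507-fold), against 1.37% and 1.43% of all genes (2.8% in either direction). In the WT libraries, Ppp1r13l was past it upward (1.69-fold) and Ppp1r9a downward (0.601-fold), against 0.979% and 1.05% of all genes (2.03% in either direction). Of these 4 genes, Ppp1r3d and Ppp1r9a had at most 224 counts in any library, and no member was past the rule in opposite directions at the 2 times.

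**Figure D4:**
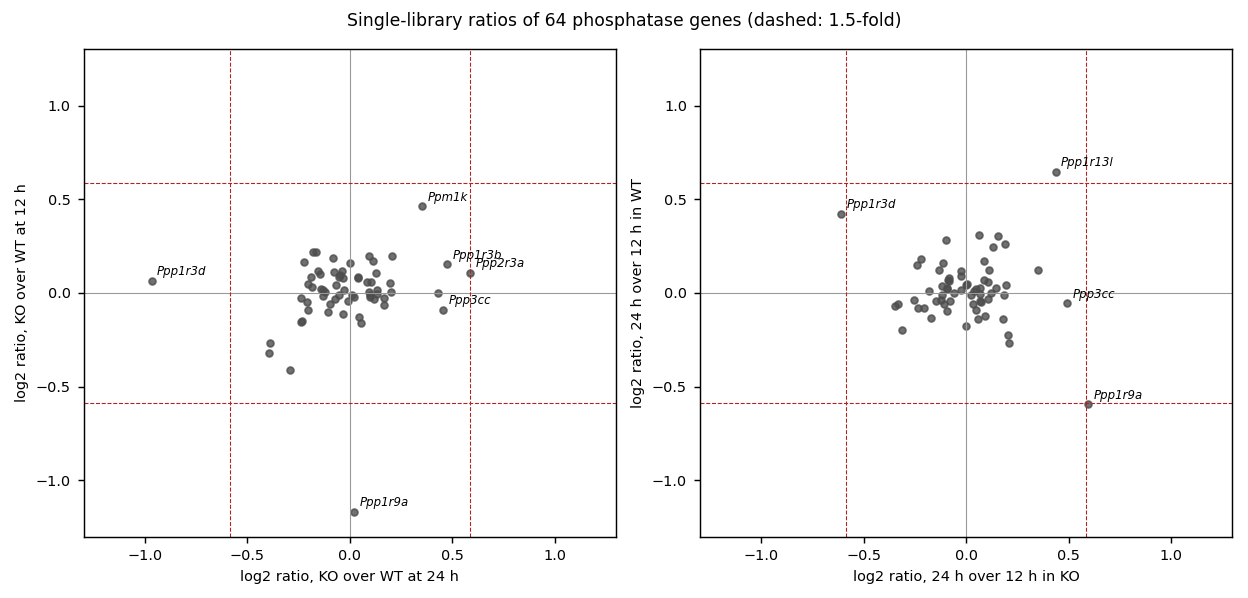
Log2 ratios with 1 CPM added, each point 1 member, with dashed lines at 1.5-fold. The left panel shows the library labelled KO over WT at 24 h against that at 12 h. The right panel shows 24 h over 12 h in the libraries labelled KO against that in WT. On the left, Ppp2cb and Ppp1r12b are below 0 at both times, Ppp1r3d has the lowest ratio of the members at 24 h and Ppp1r9a at 12 h.

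Across the 64 members, the genotype ratios at 24 h and at 12 h had a Pearson correlation of 0.178 and a Spearman correlation of 0.178, and 31 members (48.4%) had the same sign at both times. Over all 10993 genes tested, the correlations were 0.554 and 0.383, and 62.3% of genes had the same sign. The time ratios in the libraries labelled KO and in WT had a Pearson correlation of -0.112 and a Spearman correlation of 0.0268 over the members, with 33 (51.6%) of the same sign. Over all genes tested these values were 0.23 and 0.188, with 56.9% of the same sign. These correlations are across genes that share libraries and depth, so they are descriptions. The SD of log2 CPM over the 4 libraries had a median of 0.0862 over the members, from 0.0191 for Ppm1a to 0.477 for Ppp1r9a, against a median of 0.122 for all genes tested.

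The share that each gene held of its subunit class is unaffected by scaling between libraries, but its size depends on the gene lengths behind the FPKM. Ppp1ca held 72.1% and 74.4% of the PP1 catalytic FPKM in the libraries labelled KO at 24 h and 12 h, against 70.8% and 71.8% in WT. Ppp1cc held 19.1% and 17.4%, against 21.5% and 19.7% in WT, and the value labelled KO at 24 h lay close to that of WT at 12 h. Ppp2r1a held 96.4% to 96.7% of the scaffold FPKM in all 4 libraries. Ppp2r2a held 66.0% and 63.0% of the B55 FPKM in the libraries labelled KO, against 63.2% and 63.8% in WT. In calcineurin, Ppp3ca held 46.8% and 49.8% in the libraries labelled KO, against 49.0% and 46.7% in WT, and Ppp3cb held 46.9% and 45.9%, against 46.0% and 48.4% in WT. Ppm1g held 48.2% and 48.5% of the PPM1 FPKM in the libraries labelled KO, against 49.7% and 47.7% in WT.

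**Figure D5:**
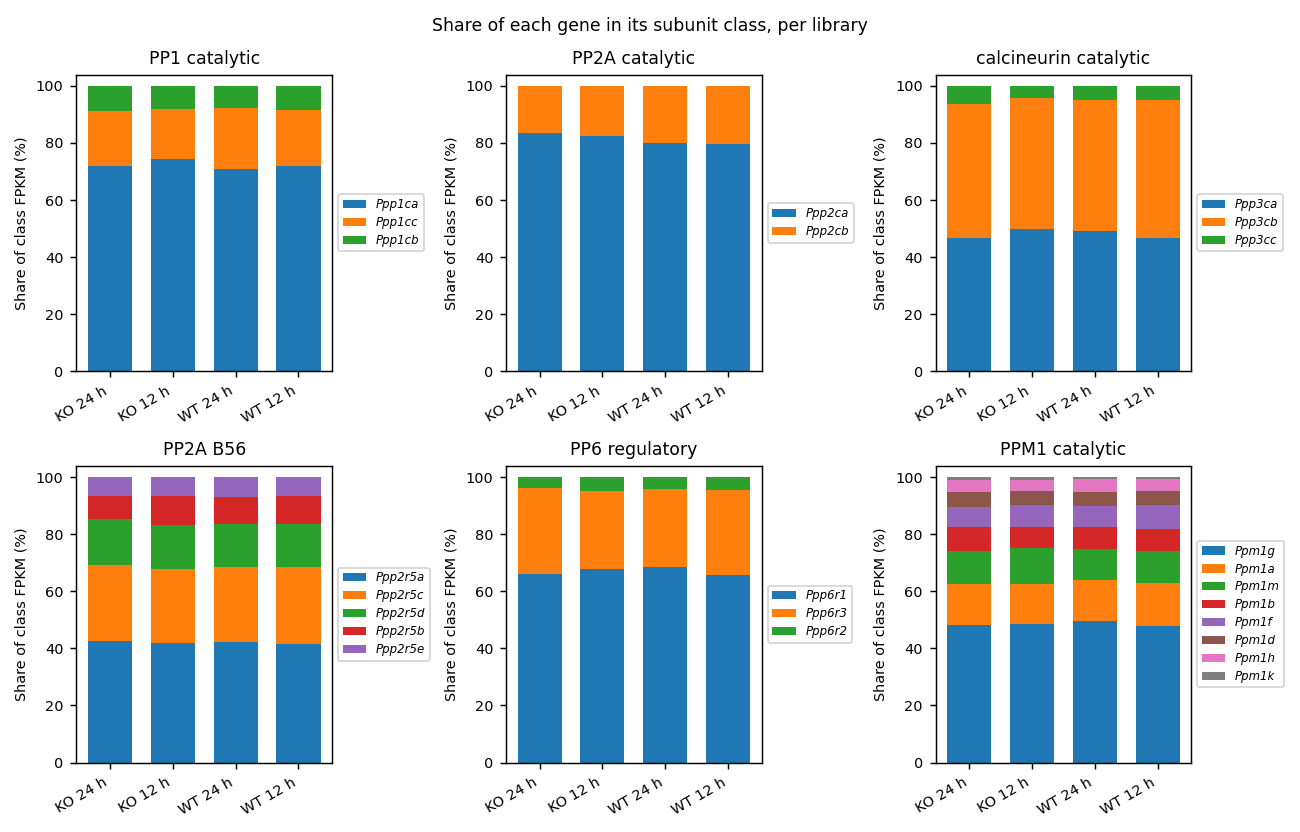
Share of the summed FPKM of 6 subunit classes held by their genes in each library, as stacked bars in percent, the libraries labelled KO left of the WT libraries. The share of Ppp2cb is 16.6% and 17.5% in the libraries labelled KO, against 20.1% and 20.3% in WT. The size of each share depends on the gene lengths behind the FPKM.

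Further genes of these pathways, taken from fixed lists, gave few calls, all from edgeR's test alone. Of 14 genes of PP2A assembly, methylation and inhibition, 0 were called, against 9.52% of all genes, and Igbp1, a chaperone of free catalytic subunits, had a log2 difference of 0.24 (adjusted p = 0.0630 in edgeR's test). Of 13 genes of STRIPAK, a complex that joins PP2A to kinases, 0 were higher and 1 was lower. That gene, Cttnbp2nl, fell to 156 and 125 CPM in the libraries labelled KO, against 178 and 160 CPM in WT (log2 -0.28, adjusted p = 0.0117 in edgeR's test). Of 25 PP1 interactors with other symbols, 2 were higher and 0 were lower: Mki67 (log2 0.42, adjusted p = 0.00649 in edgeR's test) and Knl1 (log2 1.18, adjusted p = 0.0199), both known for roles at mitotic chromosomes. Mki67 is also on the cell cycle list given above, of which 5 of 25 genes were higher, and the part of cycling cells was not tested. Of 10 phosphatases of the FCP and PGAM types, 0 were called, and of 7 other PPM and PPP phosphatases, Phlpp1 alone was.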

How the data were processed

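Messenger RNA of 4 libraries was sequenced, 1 for each genotype label and time, and samples were grouped by their labels. The authors deposited a count (a whole number) and an FPKM value for each gene symbol in each library. The submitters' processing notes name the mm10 genome and the tools edgeR, HISAT2 and StringTie 1.3.0. What each tool did, and which annotation was counted, is not given in the sources used here. Every sample column of the table was used.

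From the deposited counts, edgeR 4.0.16 under R 4.3.3 gave TMM-scaled CPM and two-sided quasi-likelihood tests, with genotype and time as additive terms. Genes that reached 1 CPM in 2 or more libraries, 10993 in all and every one of the 64 members, were tested with Benjamini-Hochberg adjustment. A call is an adjusted p under 0.05. The fitted common dispersion (0.00602) equals a coefficient of variation of 7.76%. DESeq2 1.42.0, other scalings, filters and pseudocounts and leaving out libraries were alternatives. The steps were run on simulated counts drawn with the common dispersion fitted here. Such a run checks the steps and not the reliability of calls from 1 library per group. Intervals of single ratios are exact 95% binomial intervals of the 2 counts. The deposited FPKM served for levels and shares.

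Named were the catalytic genes, called members, the 10 highest by FPKM, the leading gene of each role and the genes beside the count minimum, and of other lists the called genes. Further members are named to account for all 64. The members, lists and rules were chosen with earlier results of these data known. Positions and exon lengths are from GENCODE M21 and promoters from RefSeq on GRCm38.p6.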

Additional observations from a re-analysis of the deposited data

Results flagged for a closer look

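For 4 members, the library labelled KO was below WT at 24 h and above it at 12 h, with both counting intervals apart from a ratio of 1. Opposite directions of this kind, in either order, were found in 4 of the 64 members (6.25%) and in 7.45% of all 10993 genes tested, so their share among the members was near the background. Ppp1r10, a nuclear PP1 subunit, had ratios of 0.942 at 24 h and 1.14 at 12 h. Ppp1r37 had 0.854 at 24 h and 1.13 at 12 h. Ppp2r5b, a B56 subunit of PP2A, had 0.893 at 24 h and 1.09 at 12 h. Ppp4c, the PP4 catalytic subunit, had 0.948 at 24 h and 1.08 at 12 h. With 1 library per group, the difference between the times was not tested for any of them, and none was called for genotype.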

How the results depend on the processing

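With plain library totals, 1 member was called higher in the libraries labelled KO (Ppp3r1) and 0 lower; this scaling moved the median log2 difference of all genes tested to 0.05. DESeq2 and the model without time each called 0 lower. Without 1 library and without time, 0 to 1 members were called lower, and the 1 was Ppp2cb. Median-of-ratios scaling, no filter and a minimum of 5 CPM kept Ppp2cb and Ppp1r12b called. With a pseudocount of 5 CPM, 0 members passed 1.5-fold upward and 0 downward in KO over WT at 24 h, in 24 h over 12 h in the libraries labelled KO, and in 24 h over 12 h in WT. The share of Ppp1cc at 24 h, KO minus WT, was -3.37 percentage points by counts without length, against -2.46 by FPKM. No called value of a member reversed its sign. These alternatives were read for the members only, so the calls of marker genes and other list genes were not checked in this way. For uncalled values of the 37 named genes, the sign changed in 21 instances for genotype and 42 for time. The cause of these shifts was not tested. No paired analysis was possible because the labels give no replicate numbers that pair libraries beyond genotype and time, and both of those are terms of the model. Depth limits low members such as Ppp1r3f, whose ratio at 24 h had a counting interval of 0.497 to 1.05. For Ppp1r9a the intervals at 24 h (0.785 to 1.32) and 12 h (0.261 to 0.447) did not meet, so its ratios differed by more than counting error. This also held for other members, such as Ppp4r3b (1.29 to 1.42 at 24 h, 0.954 to 1.05 at 12 h). The share of all genes for which it holds is not given here.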

Other observations

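Among the genes below the count minimum, Ppp1r16b, a myosin-targeting relative of Ppp1r16a known from endothelial cells, had 11 and 3 counts in the libraries labelled KO at 24 h and 12 h, against 31 and 40 counts in the WT libraries. Its ratio was 0.344 at 24 h (95% counting interval 0.156 to 0.703) and 0.0758 at 12 h (0.0150 to 0.238). Ppp1r26, also below the minimum, went the other way, with 14 and 17 counts in the libraries labelled KO, against 3 and 3 counts in WT. Its ratio was 4.525 at 24 h (counting interval 1.26 to 24.6) and 5.73 at 12 h (1.66 to 30.5). Both genes were chosen after their values were seen, lay under the filter and were not tested.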
